A study of Macaca mulatta with 81 samples.

Results

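The oxidative phosphorylation genes described here code for the subunits of the mitochondrial respiratory chain and of the ATP synthase, with a few assembly factors. They were taken by name: every gene with a probe set assigned to that gene alone whose symbol began with NDUF, UQCR, COX4 to COX8 or ATP5, or was one of SDHA to SDHD. This gave 64 of the 14132 genes with such a probe set, and all 64 were among the 11806 genes bright enough to be tested. They divided into 6 core, 18 accessory and 6 assembly genes of complex I, 3 genes of complex II, 6 of complex III, 10 of complex IV and 15 of complex V. Of 93 macaque genes in RefSeq that match the same pattern, 30 had no probe set named for them alone, among them COX4I1, COX6A1, NDUFAB1, SDHD, UQCRH and ATP5F1A.

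Complexes I and II pass electrons from NADH and succinate to ubiquinone, complex III passes them to cytochrome c, and complex IV passes them to oxygen. Complexes I, III and IV pump protons across the inner mitochondrial membrane, and complex V, the ATP synthase, uses the returning protons to make ATP. Resting T cells depend largely on this pathway, and T cells that have been activated enlarge their mitochondria while also raising glycolysis.

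The study profiled CD3 T cells, sorted from the blood of rhesus macaques, on 81 Affymetrix arrays. There were 34 arrays of healthy controls (Healthy.Control) and 47 arrays of 27 animals after haematopoietic cell transplantation (HCT), with 11 animals in both sets. The deposited values are log2 levels after robust multi-array averaging (RMA). Autologous recipients, given back their own cells without prophylaxis, were sampled at day 14 (Auto.D14, 3 arrays) and day 36 (Auto.D36, 3 arrays). All other recipients received an allogeneic graft. Those without prophylaxis against graft-versus-host disease were sampled at the final time point (NoRx.F, 4 arrays). The groups under prophylaxis carry the labels Siro (Siro.F, 4 arrays), Tac-Mtx (Tac.Mtx.D14, 3 arrays; Tac.Mtx.D30, 2 arrays; Tac.Mtx.F, 3 arrays), Bela (Bela.F, 3 arrays), Bela-Siro (Bela.Siro.D14, 3 arrays; Bela.Siro.D30, 3 arrays; Bela.Siro.F, 2 arrays), FR104 (FR104.D14, 3 arrays; FR104.F, 3 arrays) and FR104-Siro (FR104.Siro.D14, 4 arrays; FR104.Siro.F, 4 arrays). The letter F marks final samples, whose day is not in the labels. The FR104.Siro.D14 arrays came from days 14, 14, 22 and 34, and 1 of the Bela.Siro.D30 arrays came from day 29. Arrays of different time points within an arm came from the same animals.

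The labels give 4 batches, and each transplant group other than NoRx.F and Siro.F lay within 1 of them; healthy controls lay in all. The hybridisation spike-in signal of 8 transplant arrays was above the highest healthy array: all 4 FR104.Siro.D14 arrays, and animal 202 of Auto.D14, animal 23 of FR104.D14, animal 29 of FR104.Siro.F and animal 38 of Bela.Siro.F. Of 11 T cell markers 6 had a named probe set, CD3 genes not among them. The mean level of these 6 ranged from 9.53 to 10.18 in the healthy arrays and from 9.90 to 10.25 in NoRx.F. Since T cells were profiled in bulk, more cells of a type and more RNA per cell cannot be told apart.

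Averaged over the 64 genes, with each gene set to its healthy mean, every one of the 15 transplant groups had a mean above 0. The healthy arrays ranged from -0.15 to 0.11 on the log2 scale. The 4 NoRx.F arrays ranged from 0.33 to 0.61, with a mean of 0.46 ± 0.15 (SD, n = 4), and lay above all 34 healthy arrays. So did all arrays of Bela.F, Bela.Siro.D14, Bela.Siro.D30, Bela.Siro.F, FR104.F, Tac.Mtx.D30 and Tac.Mtx.F. The next highest group means were 0.29 ± 0.12 (SD, n = 3) in Bela.F and 0.28 ± 0.12 (SD, n = 3) in Tac.Mtx.F. The lowest were 0.06 ± 0.11 (SD, n = 4) in FR104.Siro.D14 and 0.07 ± 0.10 (SD, n = 4) in FR104.Siro.F, and both overlapped the healthy range.

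**Figure D1:**
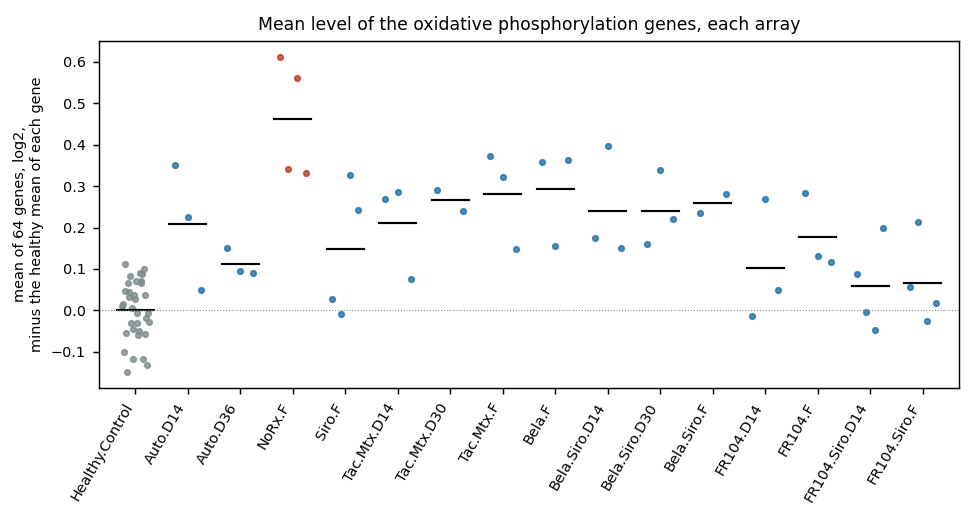
Mean log2 level of the 64 oxidative phosphorylation genes in each array, after subtraction of each gene's healthy mean, for the 16 group labels; points are arrays and bars are group means. The 4 NoRx.F arrays (red) lie between 0.33 and 0.61, above the healthy maximum of 0.11, while FR104.Siro.D14 and FR104.Siro.F overlap the healthy arrays. All arrays of Bela.F, Bela.Siro.D14, Bela.Siro.D30, Bela.Siro.F, FR104.F, Tac.Mtx.D30 and Tac.Mtx.F also lie above that maximum.

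T cells of recipients without prophylaxis were compared with healthy T cells first. Of the 64 genes, 46 rose and 2 fell in NoRx.F, with a median log2 change of 0.54 against 0.05 over all 11806 genes tested. Changes below are on the log2 scale and are followed by their standard error. A gene was called changed when its p-value from limma, adjusted by the Benjamini-Hochberg method over all genes tested, was under 0.05. Over all genes tested, 20.0% were called higher and 15.4% lower in this comparison. The counts of called members stayed between 46 and 47 when any 1 of the 4 NoRx.F arrays was left out. Within batch 1, with 3 NoRx.F arrays, 43 members were higher and 2 lower, beside 15.6% and 14.8% of all genes. Within batch 2, with a single NoRx.F array, 15 were higher and none lower, beside 4.97% and 1.93%.

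Complex I takes electrons from NADH. Of its 6 core genes 5 rose and 1 fell in NoRx.F, and of its 18 accessory genes 15 rose and none fell. The largest core rise was in NDUFS8, an iron-sulfur subunit. Its levels were 10.03, 9.50, 9.88 and 9.44 in the NoRx.F arrays, against a lowest of 8.44, a median of 8.86 and a highest of 9.18 in healthy arrays. All 4 arrays were above every healthy array, and the log2 change was 0.87 ± 0.14 (SE; adjusted p = 5.91e-07). NDUFS3 and NDUFS7, other core subunits, rose by 0.65 ± 0.09 and 0.63 ± 0.09, and NDUFS1, a large subunit that carries iron-sulfur clusters, by 0.57 ± 0.10. NDUFV1, the subunit that binds NADH, rose by 0.50 ± 0.12 (adjusted p = 3.80e-04).

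Among the accessory subunits, which surround the core of complex I, NDUFB3 led. NDUFB3 lay at 11.38, 11.06, 11.22 and 11.09 in the NoRx.F arrays, against 9.82, 10.22 and 10.44 (lowest, median and highest) in the healthy arrays. The groups did not overlap, and the change was 1.02 ± 0.10 on the log2 scale, or 2.03-fold (adjusted p = 1.37e-12). NDUFB7 rose by 0.97 ± 0.12 and NDUFB6 by 0.92 ± 0.12. All 3 belong to the membrane arm. Among the 3 accessory genes that did not pass, NDUFA10 changed by 0.20 ± 0.10, NDUFB10 by 0.14 ± 0.12 and NDUFV3 by -0.14 ± 0.15. The assembly factors, which help to build the complex and are not part of it, moved less often: 2 of 6 rose, NDUFAF6 by 0.49 ± 0.11 and NDUFAF1 by 0.48 ± 0.11. Their median change was 0.22, against 0.60 in the core genes and 0.62 in the accessory genes; the difference between these classes was not tested.

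Complex II, succinate dehydrogenase, was measured by 3 genes, and 2 of them rose. SDHB, its iron-sulfur subunit, lay at 10.45, 9.91, 10.28 and 10.01 in NoRx.F, against 9.23, 9.58 and 9.77 (lowest, median and highest) in healthy arrays, without overlap. It rose by 0.62 ± 0.10 (adjusted p = 2.51e-07). SDHC, a membrane anchor, rose by 0.60 ± 0.11 (adjusted p = 1.50e-05). SDHA, the flavoprotein that oxidises succinate, lay at 10.37, 10.03, 10.65 and 10.18, against 9.93, 10.39 and 10.55 in healthy arrays. The SDHA groups overlapped, and its change was -0.01 ± 0.12 (adjusted p = 0.956). SDHA was called in none of the 15 transplant groups, and its changes against healthy arrays ran from -0.33 to 0.03.

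Of the 6 complex III genes, 4 rose in NoRx.F and none fell. UQCRC1, one of the core proteins, lay at 11.66, 11.33, 11.58 and 11.29, against 10.42, 10.78 and 11.08 (lowest, median and highest) in healthy arrays. All 4 arrays were above the healthy range, with a change of 0.69 ± 0.10 (adjusted p = 1.03e-07). UQCRB, a small subunit near the quinone-binding site, had the largest change at 1.06 ± 0.27 (adjusted p = 9.09e-04), but a wider spread. Its NoRx.F levels of 7.82, 7.17, 7.90 and 7.41 overlapped the healthy maximum of 7.23. UQCRFS1, the Rieske iron-sulfur protein, rose by 0.65 ± 0.12 and UQCRQ by 0.62 ± 0.11.

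Complex IV, cytochrome c oxidase, was mixed: 5 of 10 genes rose, 1 fell and the median change was 0.22. COX7A1, an isoform best known from heart and skeletal muscle, lay at 9.28, 9.41, 9.54 and 9.46, against 7.84, 8.36 and 9.12 (lowest, median and highest) in healthy arrays. It rose by 1.07 ± 0.20 (adjusted p = 8.24e-06), and the groups did not overlap. COX6B1, which lies at the interface of the complex IV dimer, rose by 0.99 ± 0.10 and COX7B by 0.66 ± 0.11. COX5A rose by 0.54 ± 0.12, and NDUFA4, first named as a complex I subunit and now placed in complex IV, by 0.30 ± 0.10 (adjusted p = 0.0195). COX4I2, COX6A2 and NDUFA4L2, other isoforms, did not pass: COX4I2 changed by 0.03 ± 0.10, COX6A2 by -0.03 ± 0.13 and NDUFA4L2 by 0.14 ± 0.11. COX8A changed by -0.14 ± 0.22 (adjusted p = 0.653).

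In complex V 13 of 15 genes rose and none fell, with a median of 0.49. The largest change of all 64 genes was that of ATP5IF1, which codes for the inhibitor that binds the ATP synthase and limits ATP hydrolysis. ATP5IF1 lay at 10.42, 10.45, 10.54 and 10.14 in NoRx.F, against 8.80, 9.18 and 9.48 (lowest, median and highest) in healthy arrays. All 4 arrays were above every healthy array, and the change was 1.21 ± 0.10, or 2.31-fold (adjusted p = 4.27e-15). The genes for the c subunits, which form the membrane rotor, all rose, by 0.93 ± 0.09 for ATP5MC3, 0.85 ± 0.12 for ATP5MC1 and 0.32 ± 0.12 for ATP5MC2. ATP5G1, which rose by 0.45 ± 0.11, is listed in the annotation with a gene ID of its own that RefSeq does not hold, and RefSeq gives its name as a synonym of ATP5MC1. The 64 members, the 15 genes of complex V and its 13 rises may therefore count 1 gene under both names. ATP5F1B, the catalytic beta subunit, rose by 0.65 ± 0.20 (adjusted p = 0.00648), and changed by -0.17 when its probe sets were averaged. ATP5PO, of the peripheral stalk, changed by -0.25 ± 0.16 (adjusted p = 0.232) and ATP5PB, also of the stalk, by 0.17 ± 0.10.

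**Figure D2:**
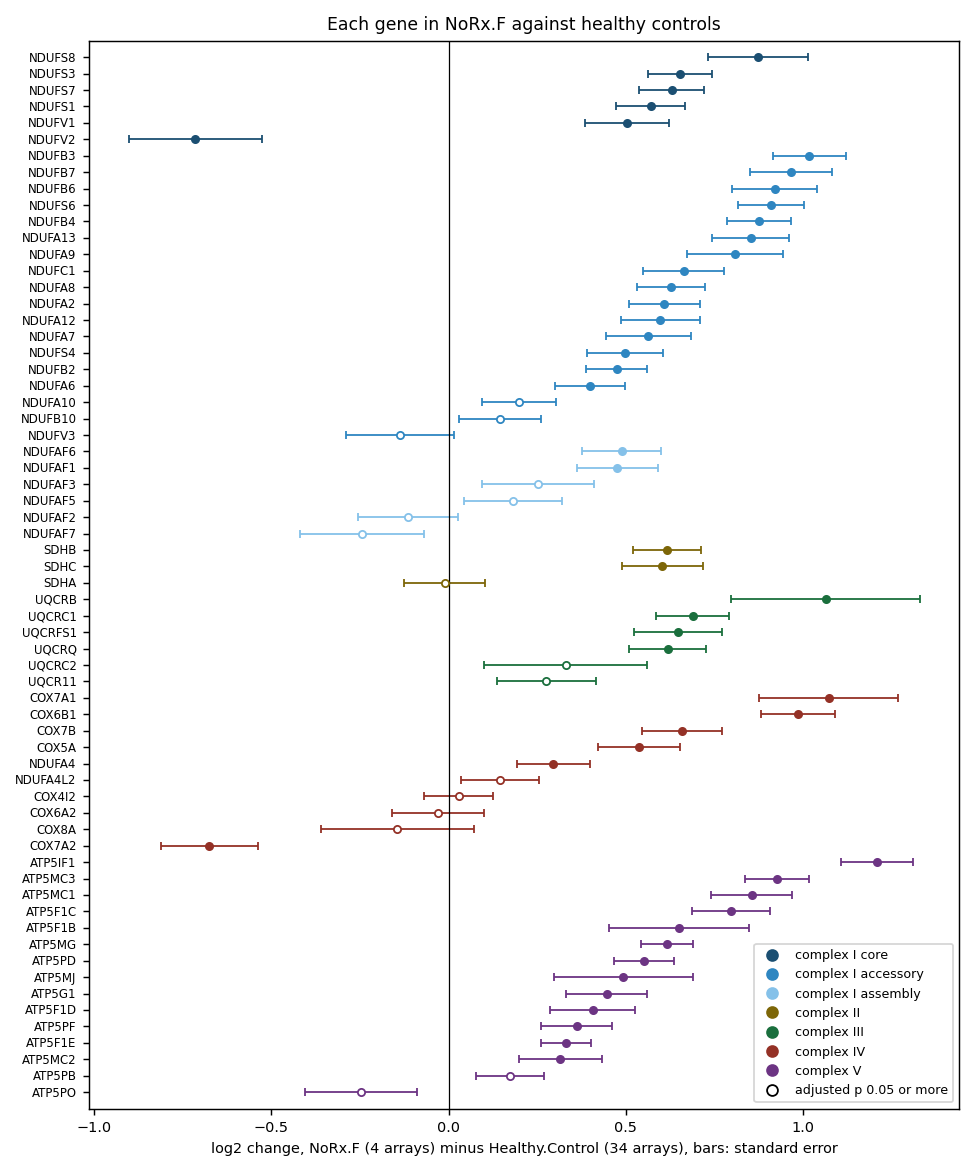
log2 change of each of the 64 genes in NoRx.F (4 arrays) against healthy controls (34 arrays), ordered by complex; bars are standard errors and open circles did not pass an adjusted p of 0.05. Of the 48 called genes 46 lie to the right of 0, led by ATP5IF1 at 1.21, and NDUFV2 and COX7A2 lie to the left.

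Both genes called lower in NoRx.F had a second probe set that was called higher. NDUFV2, a core iron-sulfur subunit of complex I, changed by -0.71 ± 0.19 on its brightest probe set (adjusted p = 0.00161) and by 0.51 ± 0.12 on the other (adjusted p = 7.83e-04). COX7A2, the widely expressed counterpart of COX7A1, changed by -0.68 ± 0.14 on its brightest probe set (adjusted p = 4.69e-05) and by 0.56 ± 0.19 on the other (adjusted p = 0.0138). These genes therefore have no settled direction in these data.

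In 3 of the genes called higher another probe set was called lower. NDUFS6, an accessory subunit of complex I, rose by 0.91 ± 0.09 on its brightest probe set, while its other probe sets changed by -1.09 ± 0.13 and -0.79 ± 0.16. The second probe set of ATP5F1B changed by -0.99 ± 0.28 and that of ATP5F1C by -0.75 ± 0.23, against 0.80 ± 0.11 on the brightest probe set of ATP5F1C. Among the 38 other probe sets of 29 genes that were tested, 16 passed the threshold together with the brightest one; 10 of these changed in the same direction and 6 in the opposite direction. Genes whose probe sets moved together included NDUFS8 (0.76 ± 0.15 on the other probe set), NDUFS7 (0.64 ± 0.15), ATP5MC1 (0.81 ± 0.13) and UQCRB (0.68 ± 0.14 and 0.48 ± 0.19, with a further probe set at 0.03 ± 0.16 that did not pass). The second probe set of ATP5IF1, dimmer than the first, changed by 0.21 ± 0.10 (adjusted p = 0.0956). In further genes called higher, another probe set changed the other way without passing. These were NDUFB4 (-0.47 ± 0.23), NDUFB6 (-0.47 ± 0.32), NDUFA2 (-0.30 ± 0.13), NDUFB7 (-0.13 ± 0.22), NDUFS1 (-0.12 ± 0.17), ATP5G1 (-0.12 ± 0.10), UQCRC1 (-0.09 ± 0.11), NDUFA6 (-0.08 ± 0.11) and COX5A (-0.01 ± 0.12). NDUFA2, UQCRC1 and NDUFA6 also had a probe set that rose with the brightest (0.62 ± 0.09, 0.64 ± 0.21 and 0.73 ± 0.13). Which probe set reads the mature transcript was not tested.

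**Figure D3:**
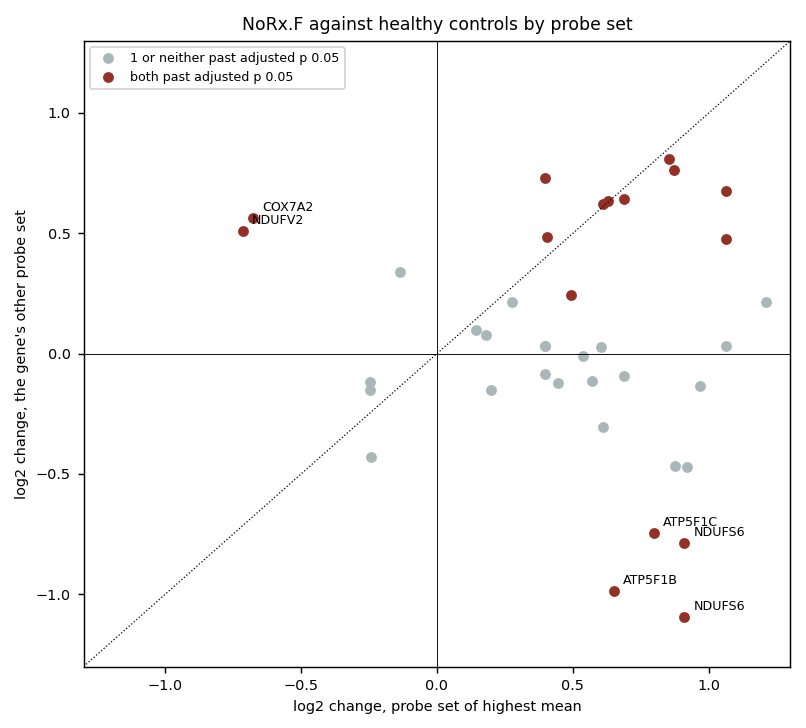
log2 change in NoRx.F against healthy controls on the brightest probe set of a gene (horizontal) and on another probe set of the same gene (vertical); the dotted line marks equal changes and red points passed an adjusted p of 0.05 on both. Of the 16 red points 6 lie in opposite quadrants and belong to NDUFV2, COX7A2, NDUFS6 (at -1.09 and -0.79), ATP5F1B and ATP5F1C.

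Other genes that serve the pathway were counted in the same comparison, where 20.0% of all genes tested were higher and 15.4% lower. The lists used here and below were chosen with earlier results of these data known. Of 11 further complex I assembly factors, of which COA1 is also in the next list, 7 rose and none fell in NoRx.F, among them DMAC2 (0.76 ± 0.09), DMAC1 (0.82 ± 0.14) and ACAD9 (0.78 ± 0.14). Of 25 assembly factors of complexes II to V, 11 rose and 4 fell; TACO1, a translational activator of a complex IV subunit, rose by 0.71 ± 0.10, COX17, a copper chaperone, by 0.89 ± 0.14 and ATPAF2 by 0.57 ± 0.08. CYC1, the cytochrome c1 subunit of complex III whose symbol the name pattern does not catch, rose by 0.48 ± 0.09.

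The counts that follow likewise stand beside 20.0% of all genes tested higher and 15.4% lower. Of 13 genes of the citric acid cycle and pyruvate dehydrogenase that were tested, 6 rose and 1 fell. MDH2, the mitochondrial malate dehydrogenase, rose by 0.84 ± 0.12, PDHX by 0.86 ± 0.13 and IDH3G by 0.44 ± 0.13. Of 7 carriers, porins and uncoupling genes 4 rose, among them SLC25A5, which exchanges ADP for ATP, by 1.09 ± 0.13, VDAC1 by 0.78 ± 0.12 and UCP2 by 0.88 ± 0.17. Of 12 other electron donors and carriers 5 rose and 1 fell; SQOR rose by 0.80 ± 0.14, ETFDH rose by 0.80 ± 0.18 and COQ6, of ubiquinone synthesis, fell by 0.45 on the log2 scale. Of 11 nuclear-encoded genes that regulate respiratory genes or serve mitochondrial DNA, 1 rose and 2 fell. MTERF3 rose by 0.52 ± 0.13, TWNK fell by 0.48 and MYC fell by 1.48 on the log2 scale.

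Markers of dividing cells moved in the same arrays. All 6 measured markers of dividing cells rose in NoRx.F, with a median change of 3.54, and CCNB2 rose by 4.77 ± 0.40, MKI67 by 3.41 ± 0.31 and CCNB1 by 2.46 ± 0.25. Their mean level ranged from 8.67 to 9.94 in NoRx.F and from 5.23 to 6.84 in healthy arrays. In Siro.F it ranged from 7.08 to 8.99, and in FR104.Siro.F from 6.35 to 7.84. The part of cell division in the changes of the oxidative phosphorylation genes was not tested.

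Some markers of other blood cells also differed, in the comparison where 20.0% of all genes tested were higher and 15.4% lower. Of 10 monocyte and neutrophil markers 3 rose, S100A9 by 4.91 ± 0.83, S100A8 by 4.64 ± 0.79 and FCN1 by 2.23 ± 0.64, and the mean of the 10 ranged from 6.27 to 7.88 in NoRx.F against 4.97 to 7.24 in healthy arrays. Of 5 natural killer cell markers 2 were lower: KLRF1 fell by 2.72 and NCR3 fell by 0.38 on the log2 scale. CD8A and CD8B rose by 0.75 ± 0.16 and 1.13 ± 0.27 while CD5 fell by 0.44 on the log2 scale. Of 4 plasma cell markers 2 rose (MZB1 by 1.21 ± 0.19 and XBP1 by 0.59 ± 0.14), of 3 B cell markers 1 rose (CD79B by 0.94 ± 0.22), and none of 3 erythroid or 5 platelet markers passed. The part of these cells in the result was not tested.

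Each of the other 14 transplant groups was compared with the same healthy arrays, so these comparisons share their reference. Bela.F had the next largest count: 31 genes rose and none fell, with a median of 0.31, while 12.4% of all genes tested were higher and 5.25% lower. The rises included 12 of the 18 accessory and 4 of the 6 core genes of complex I, and 7 of the 15 genes of complex V. UQCRB lay at 7.89, 7.09 and 8.22 in Bela.F, against a healthy range of 5.58 to 7.23 that its lowest array overlapped, and rose by 1.22 ± 0.29 (adjusted p = 0.00141). ATP5MC1 lay at 10.44, 9.70 and 9.83, above the healthy maximum of 9.42, and rose by 0.86 ± 0.12. COX7A1 rose by 0.80 ± 0.21. Without animal 47 the count of genes called was 12, and without animal 46 it was 15. The mean of the dividing cell markers ranged from 8.01 to 9.08 in Bela.F, and that of the monocyte and neutrophil markers from 7.36 to 7.84; their part was not tested.

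In Tac.Mtx.F 26 genes rose and 1 fell, with a median of 0.28, beside 10.7% higher and 3.41% lower over all genes tested. UQCRB lay at 7.40, 7.61 and 7.80, above all healthy arrays, and rose by 1.08 ± 0.29 (adjusted p = 0.00744). ATP5MJ, a small membrane subunit of the ATP synthase, rose by 0.75 ± 0.21 and ATP5MC1 by 0.68 ± 0.12, both without overlap. NDUFV3, an accessory subunit of the NADH-oxidising arm, fell by 0.53 on the log2 scale (adjusted p = 0.0230). The count was 9 without animal 21 and 3 without animal 20. At earlier times the arm held fewer calls. In Tac.Mtx.D30, with 2 arrays, 7 rose and none fell (2.85% and 0.610% of all genes), led by ATP5MC1 (0.67 ± 0.15), NDUFB7 (0.61 ± 0.15) and COX7B (0.53 ± 0.14); leaving out either animal, 20 or 19, gave 0. With its probe sets averaged, NDUFB7 changed by -0.031 there. In Tac.Mtx.D14 ATP5MC1 alone rose, by 0.60 ± 0.12 (1.40% of all genes higher and 0.0678% lower). Its levels there were 9.73, 9.74 and 9.71, all above the healthy arrays. The count in Tac.Mtx.D14 was 4 without animal 19, and 2 under the random block for animal.

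In Siro.F 10 genes rose and none fell, with a median of 0.17, where 8.27% of all genes were higher and 6.34% lower. COX7A1 lay at 8.89, 9.07, 9.61 and 9.70 and rose by 0.96 ± 0.19 (adjusted p = 1.66e-04), with 2 of the arrays inside the healthy range. ATP5MC1 rose by 0.58 ± 0.11 without overlap, and NDUFAF3, an assembly factor of complex I, by 0.53 ± 0.15. The batches differed: within batch 1 no member was called by limma (2 higher and 3 lower at an unadjusted p under 0.05, beside 0.974% and 1.50% of all genes called) and COX7A1 changed by 0.50. Within batch 2 21 members were higher and none lower (7.68% and 3.13% of all genes), and COX7A1 rose by 1.36. Each batch held 2 Siro.F arrays. The count was 3 without animal 13 and 3 without animal 18, both of batch 2.

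In the Bela-Siro arm 6 genes rose at day 14 (1.99% of all genes higher and 0.525% lower), 15 at day 30 (4.23% and 2.95%) and 6 at the final time (1.87% and 0.966%), and none fell. COX7A1 was among them each time, with changes of 0.75 ± 0.21, 0.83 ± 0.21 and 1.06 ± 0.25. Its final levels were 9.44 and 9.44, above the healthy maximum of 9.12. ATP5MC1 rose by 0.67 ± 0.12 at day 14 and 0.69 ± 0.12 at day 30, both without overlap. NDUFA4 rose by 0.41 ± 0.11 at day 14 and COX7A2 by 0.57 ± 0.15 at day 30. The COX7A2 value is from its brightest probe set, which opposed the other in NoRx.F against healthy arrays. NDUFB7 (0.55 ± 0.15) and NDUFB3 (0.50 ± 0.13) rose at the final time. These counts rested on single animals: 3 without animal 38 and 0 without animal 42 at day 14, 4 without animal 42 and 4 without animal 49 at day 30, and 0 without either animal at the final time.

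In the FR104 arm 2 genes rose at day 14 (2.58% of all genes higher and 2.80% lower) and 8 at the final time (5.39% and 5.28%), and none fell. NDUFB3 rose at both times, by 0.43 ± 0.12 and by 0.61 ± 0.12. Its final levels were 10.86, 10.91 and 10.62, all above the healthy maximum of 10.44. ATP5MC1 rose by 0.48 ± 0.14 at day 14, and NDUFA9 (0.48 ± 0.16) and ATP5MC3 (0.42 ± 0.11) rose at the final time. At day 14 the count was 0 without animal 22, 0 without animal 23, 4 without animal 24 and 5 under the random block for animal. At the final time it was 1 without animal 22 and 4 without animal 23. The difference between the 3-prime and 5-prime actin probe sets, a measure of RNA integrity, was 0.017 to 0.373 at day 14 and 0.095 to 0.425 at the final time, below the 0.43 to 3.83 of the healthy arrays. With the actin and GAPDH differences as covariates 2 genes were called at day 14 and 4 at the final time, where NDUFA9 was no longer called.

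In FR104.Siro.D14 3 genes rose and 1 fell (8.52% of all genes higher and 9.68% lower), and all 4 arrays had the high spike-in signal described above, whose part was not tested. UQCRB fell by 1.14 on the log2 scale (adjusted p = 0.00532). It lay at 5.59, 5.16, 5.08 and 5.73, against a healthy lowest of 5.58 and median of 6.64, with overlap. COX7A2 lay at 11.69, 11.93, 11.62 and 11.84, above all healthy arrays, and rose by 0.67 ± 0.15. This was read on its brightest probe set, which opposed the other in NoRx.F against healthy arrays. ATP5MC1 rose by 0.52 ± 0.13, and COX4I2, the lung and hypoxia-linked isoform of complex IV, by 0.32 ± 0.11 (adjusted p = 0.0289). COX4I2 was dim: it lay at 4.76 to 5.06 there, against a healthy median of 4.56. A gene had to exceed 4.65 in at least 2 arrays to be tested. In FR104.Siro.F no gene rose and 1 fell (2.91% and 7.15% of all genes) by limma, where 6 were higher and 2 lower at an unadjusted p under 0.05. The gene that fell was NDUFA10, an accessory subunit, at 8.45, 8.42, 8.65 and 8.44. The healthy lowest was 8.58 and the median 8.93, so the NDUFA10 groups overlapped. Its change was -0.41 ± 0.11 (adjusted p = 0.0122). With the animal as a random block 2 genes were called. The difference between the 3-prime and 5-prime actin probe sets was 0.226 to 2.15 in FR104.Siro.D14 and 0.061 to 1.21 in FR104.Siro.F. Some arrays of both groups thus lay below the 0.43 to 3.83 of the healthy arrays.

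Autologous recipients formed the remaining groups. In Auto.D14 11 genes rose and none fell, with a median of 0.24, beside 2.47% of all genes higher and 1.92% lower. ATP5IF1 lay at 9.89, 10.04 and 9.60, above the healthy maximum of 9.48, and rose by 0.65 ± 0.12 (adjusted p = 9.44e-04). NDUFB3 rose by 0.60 ± 0.12, also without overlap, and NDUFB6 by 0.54 ± 0.14. The count depended on single arrays: it was 4 without animal 201, 21 without animal 200 and 0 without animal 202, the array with the high spike-in signal. With the animal as a random block 17 genes were called.

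In Auto.D36 9 genes rose and 1 fell (7.84% of all genes higher and 8.89% lower). UQCRC2, a core protein of complex III, lay at 10.06, 9.90 and 9.74, above the healthy maximum of 9.47, and rose by 0.98 ± 0.27 (adjusted p = 0.00845). ATP5F1B lay at 11.79, 11.67 and 11.51 against a healthy maximum of 11.28 and rose by 0.90 ± 0.24, and NDUFA9, an accessory complex I subunit, by 0.50 ± 0.16. COX8A, a small complex IV subunit, fell by 1.02 on the log2 scale. It lay at 8.53, 7.90 and 8.26, against a healthy lowest of 8.44 and median of 9.23, with overlap. The difference between the 3-prime and 5-prime actin probe sets, a measure of RNA integrity, was -0.34 to -0.30 in these arrays and 0.43 to 3.83 in healthy arrays. With the actin and GAPDH differences as covariates 4 members were called. COX8A was still called (adjusted p = 0.00671), and UQCRC2 (0.972), ATP5F1B (0.569) and NDUFA9 (0.419) were not. The count was 4 without animal 201 and 5 without animal 200.

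**Figure D4:**
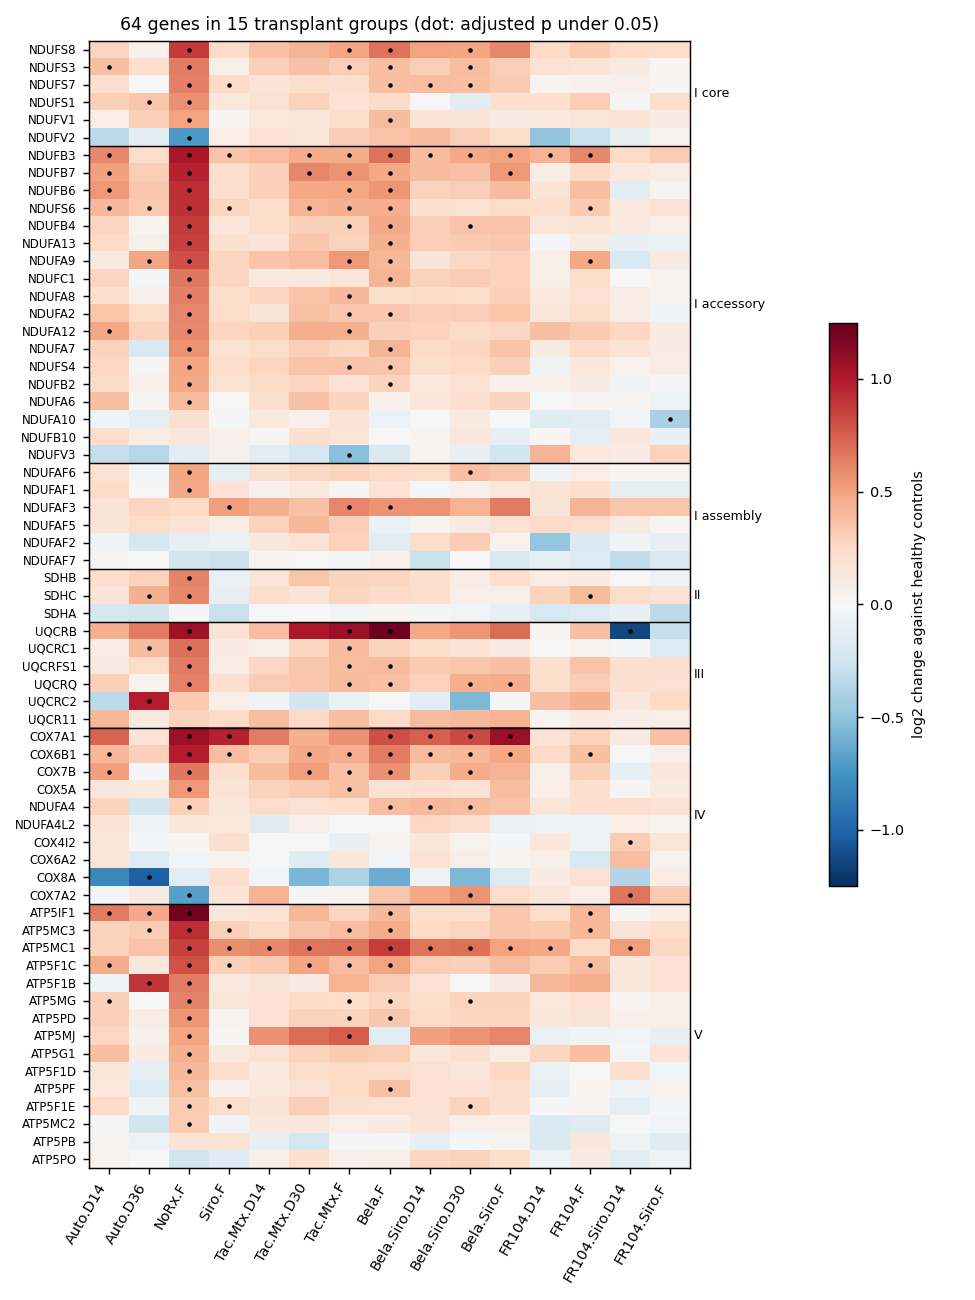
log2 change of each of the 64 genes (rows, by complex) in the 15 transplant groups (columns) against healthy controls; red is higher, blue is lower and a dot marks an adjusted p under 0.05. The NoRx.F column holds 48 dots, Bela.F 31 and Tac.Mtx.F 27, and the FR104.Siro.F column holds 1, at NDUFA10.

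Counted over the 15 groups, 50 genes were called higher in at least 1, 6 were called lower in at least 1, and 10 were called in none. Over all 11806 genes tested, 37.1% were called higher in at least 1 of these groups, 30.3% were called lower in at least 1, and 36.4% were called in none. ATP5MC1 and NDUFB3 were called higher in 11 groups each, COX6B1 in 10 and NDUFS6 in 8. The 15 comparisons share the 34 healthy arrays, and the share of all genes called in as many groups was not counted. The NDUFS6 count is from its brightest probe set, while its others changed by -1.09 ± 0.13 and -0.79 ± 0.16 in NoRx.F. ATP5MC1 was lowest in the healthy arrays, with a mean of 9.13 ± 0.15 (SD, n = 34). The order of its group means started with Bela.F (9.99 ± 0.40, n = 3), NoRx.F (9.98 ± 0.23, n = 4) and Bela.Siro.D30 (9.81 ± 0.29, n = 3), which lay within their spreads of each other. The lowest transplant groups were FR104.F (9.38 ± 0.15, n = 3) and FR104.Siro.F (9.40 ± 0.12, n = 4).

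ATP5IF1 followed another order. After NoRx.F (10.39 ± 0.17, n = 4) came Auto.D14 (9.84 ± 0.22, n = 3), Auto.D36 (9.67 ± 0.06, n = 3), Tac.Mtx.D30 (9.60 ± 0.10, n = 2), FR104.F (9.60 ± 0.22, n = 3) and Bela.F (9.60 ± 0.24, n = 3). The lowest NoRx.F array, at 10.14, was above the highest array of any other group, which was 10.04 in Auto.D14. From Auto.D36 down to FR104.Siro.D14 (9.21 ± 0.21, n = 4), neighbouring groups differed by less than the larger of their SDs. COX7A1 was highest in Bela.Siro.F (9.44, n = 2), NoRx.F (9.42 ± 0.11, n = 4) and Siro.F (9.32 ± 0.40, n = 4), and lowest in the healthy arrays (8.37 ± 0.30, n = 34). The transplant groups nearest to healthy were FR104.Siro.D14 (8.50 ± 0.35, n = 4), Auto.D36 (8.56 ± 0.13, n = 3) and FR104.D14 (8.57 ± 0.45, n = 3).

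**Figure D5:**
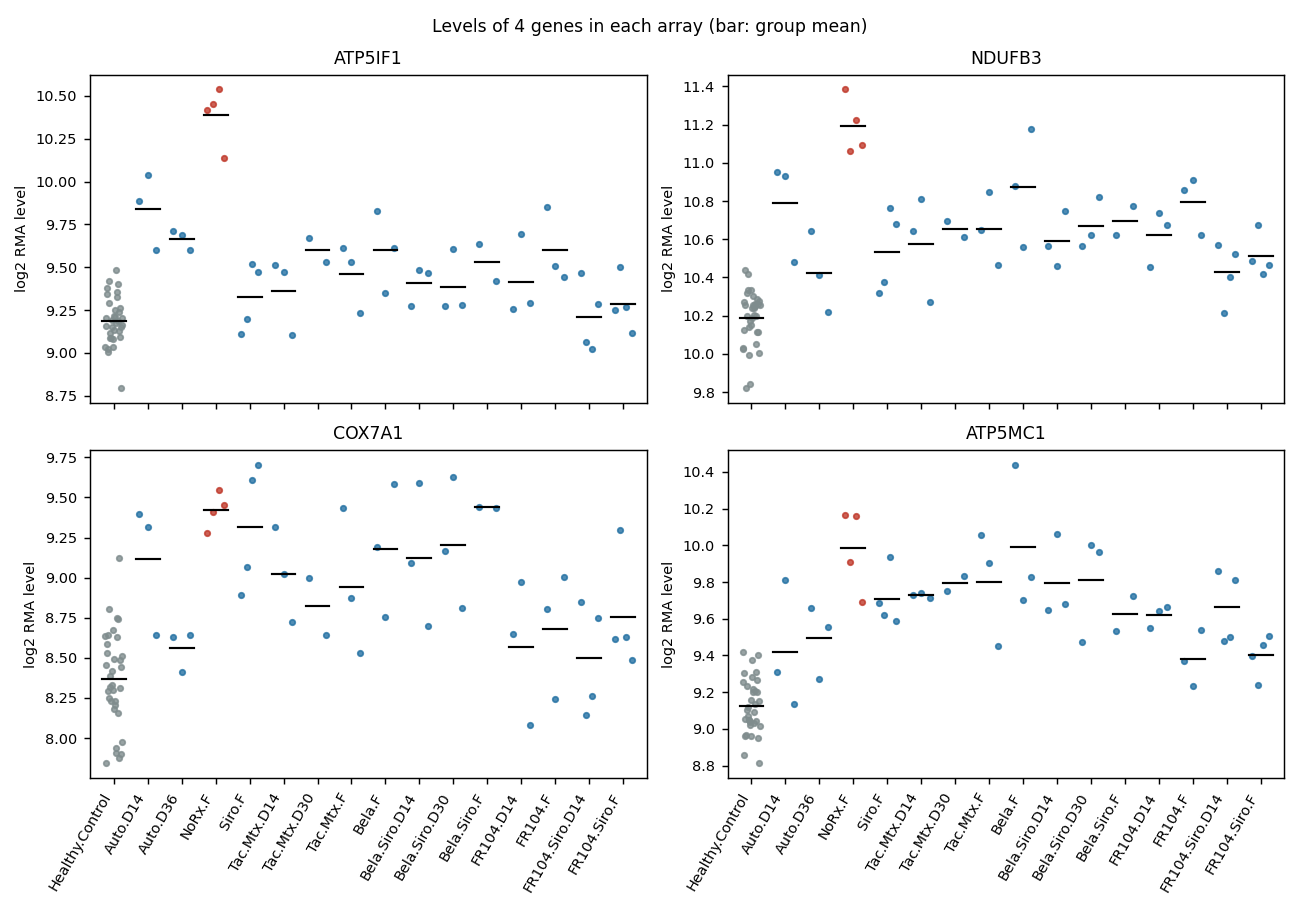
log2 RMA level of ATP5IF1, NDUFB3, COX7A1 and ATP5MC1 in each array by group, with bars at the group means. ATP5IF1 is highest in NoRx.F, at 10.14 to 10.54, while COX7A1 in Siro.F and Bela.Siro.F reaches the level of NoRx.F.

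The 6 final groups under prophylaxis were then compared with NoRx.F, to ask how far treatment was accompanied by lower levels. These comparisons share the 4 NoRx.F arrays. Apart from Siro.F, the groups shared no batch with NoRx.F, so that these differences reach across batches through the healthy arrays alone.

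Siro.F, which shares batches 1 and 2 with NoRx.F, had 29 genes lower and 2 higher, with a median of -0.37 against -0.02 over all genes tested, where 6.68% were lower and 5.39% higher. The lower genes were 5 of the 6 core and 11 of the 18 accessory genes of complex I, 1 assembly factor, 2 of the 3 genes of complex II, 3 of complex III, 2 of complex IV and 5 of complex V. ATP5IF1 lay at 9.11, 9.20, 9.52 and 9.47 in Siro.F, against 10.14 to 10.54 in NoRx.F. The groups did not overlap and ATP5IF1 fell by 1.07 on the log2 scale (adjusted p = 1.43e-08). NDUFB4, an accessory complex I subunit, lay at 11.30, 11.02, 11.36 and 11.35 against 12.21, 11.90, 12.07 and 11.76 and fell by 0.73, and NDUFB7 fell by 0.75.

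The 2 genes that were higher in Siro.F than in NoRx.F were COX7A2 (0.85 ± 0.17) and NDUFV2 (0.79 ± 0.23), the same whose probe sets disagreed above. Their other probe sets changed by 0.05 ± 0.22 and -0.20 ± 0.15 here and did not pass. Within batch 1, with 3 NoRx.F and 2 Siro.F arrays, 32 genes were lower and 2 higher (6.79% and 4.46% of all genes), and ATP5IF1 fell by 1.32. Within batch 2, with 1 NoRx.F and 2 Siro.F arrays, no member was called by limma (5 lower and 2 higher at an unadjusted p under 0.05, beside 0.0339% and 0% of all genes called), and ATP5IF1 changed by -0.64 (adjusted p = 0.282). The count of called members was 20 without NoRx.F animal 50 and 18 without Siro.F animal 16. Of the 6 dividing cell markers 4 were lower in Siro.F than in NoRx.F, with a median of -1.50; their part was not tested.

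FR104.Siro.F had 32 genes lower and 2 higher than NoRx.F, with a median of -0.46 (13.1% of all genes lower and 6.55% higher). The lower genes included 14 of the 18 accessory genes of complex I and 7 of the 15 genes of complex V. UQCRB, at 6.46, 6.99, 5.58 and 5.89 against 7.82, 7.17, 7.90 and 7.41, fell by 1.36 (adjusted p = 0.00906). ATP5IF1, at 9.25, 9.50, 9.27 and 9.11, fell by 1.11 (adjusted p = 3.02e-07). NDUFA13, an accessory complex I subunit, lay at 9.79, 10.23, 9.62 and 9.72 against 11.01, 10.66, 10.76 and 10.57, and fell by 0.93. None of these 3 genes overlapped between the groups. COX7A2 (1.00 ± 0.20) and NDUFV2 (0.76 ± 0.28) were higher. The count ranged from 27 to 38 when any 1 array was left out. Of the dividing cell markers 4 of 6 were lower, with a median of -2.27; their part was not tested.

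FR104.F had 14 genes lower and 1 higher (4.13% and 3.54% of all genes). ATP5IF1 fell by 0.80, NDUFA13 by 0.75 and NDUFB7 by 0.72 on the log2 scale, and COX7A2 rose by 0.76 ± 0.21. The count was 5 without FR104.F animal 23 and 9 without NoRx.F animal 50. Tac.Mtx.F had 10 genes lower and 2 higher (2.24% and 4.70%). There ATP5IF1 fell by 0.94, NDUFB4 by 0.58 and NDUFA13 by 0.56, while NDUFV2 (1.03 ± 0.28) and COX7A2 (0.72 ± 0.20) were higher. The count was 3 without Tac.Mtx.F animal 19 and 6 without NoRx.F animal 50.

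Bela.Siro.F had 7 genes lower and 2 higher (3.53% and 4.22% of all genes). ATP5IF1 fell by 0.87, NDUFS6 by 0.68 and ATP5MC3 by 0.59, and NDUFV2 (0.93 ± 0.31) and COX7A2 (0.90 ± 0.22) were higher. With its probe sets averaged, NDUFS6 changed by 0.21 here. The count was 2 without Bela.Siro.F animal 42 and 5 without NoRx.F animal 50. In Bela.F ATP5IF1 alone was lower, by 0.80, and NDUFV2 (1.07 ± 0.28) and COX7A2 (1.03 ± 0.20) were higher (0.195% and 1.67% of all genes). The count there was 6 without NoRx.F animal 53.

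ATP5IF1 was thus called lower than in NoRx.F in all 6 groups. ATP5MC3, COX6B1, NDUFB4 and NDUFS6 were called lower in 5 of them. The 6 comparisons share the same NoRx.F arrays, and the share of all genes called lower in as many was not counted. In NoRx.F against healthy arrays the other probe set of ATP5IF1 changed by 0.21 ± 0.10 and that of NDUFB4 by -0.47 ± 0.23. Neither passed. The direction of NDUFS6 rests on 1 of its 3 probe sets. The rises of COX7A2 and NDUFV2 over NoRx.F rest on their brightest probe sets, which opposed the others in NoRx.F against healthy arrays.

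The recipients without prophylaxis were also set against Auto.D14, recipients without prophylaxis or an allogeneic graft; the groups differ in time point and batch as well. In NoRx.F 8 genes were higher and none lower (1.90% and 1.43% of all genes), with a median of 0.28. NDUFA9 was higher by 0.69 ± 0.21 (adjusted p = 0.0482), ATP5MC3 by 0.64 ± 0.14 and NDUFB4 by 0.61 ± 0.14. The count was 4 without Auto.D14 animal 201, 3 without Auto.D14 animal 200, 3 without NoRx.F animal 50, 2 without animal 52 and 15 without animal 53.

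Adding Siro to FR104 or to Bela was not accompanied by a called change. Between FR104.Siro.F and FR104.F no gene was called by limma (0.00847% of all genes higher and 0% lower), with 9 lower and none higher at an unadjusted p under 0.05, and a median of -0.12. Between Bela.Siro.F and Bela.F none was called (0.186% and 0.271% of all genes), with 1 higher and 1 lower at an unadjusted p under 0.05. The difference between these effects was tested as well: none of the 64 genes passed by limma, and 1 had an unadjusted p under 0.05.

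Few members were called between time points of an arm. UQCRC2 was higher in Auto.D36 than in Auto.D14 by 1.31 ± 0.32 (adjusted p = 0.0237), as the only member called (0.855% of all genes higher and 0.119% lower). Its levels ranged from 9.74 to 10.06 at day 36 and from 7.92 to 9.21 at day 14, without overlap. The call was lost without animal 201 or animal 202 of Auto.D14, without animal 201 or 200 of Auto.D36, and with the actin and GAPDH covariates; 9 genes were called without Auto.D14 animal 200, and 5 under the random block for animal.

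No member was called between FR104.F and FR104.D14 (0% and 0% of all genes; 2 higher and none lower at an unadjusted p under 0.05). None was called between Bela.Siro.D30 and Bela.Siro.D14 (0.00847% and 0%; none at an unadjusted p under 0.05). Between FR104.Siro.F and FR104.Siro.D14 none was called while 1.68% of all genes were higher and 1.42% lower; 1 was higher and 3 were lower at an unadjusted p under 0.05. With the animal as a random block 1 member was called there, and leaving out FR104.Siro.D14 animal 28 or FR104.Siro.F animal 29 gave 1 and 2.

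The members did not all vary together across the 81 arrays once batch means were removed. COX6B1, ATP5F1C, NDUFA8 and ATP5MC3 followed the mean of the other members most closely, with Pearson r of 0.93, 0.92, 0.92 and 0.92. NDUFV3 (-0.26), COX8A (-0.19), NDUFAF7 (-0.14), COX7A2 (-0.14) and NDUFV2 (-0.01) did not follow it, and neither did UQCRC2 (0.01). Outside the set, the genes most like the members' mean were SNRPF, a core protein of the spliceosome (r = 0.94), and SEC61B and SEC61G, subunits of the channel that takes proteins into the endoplasmic reticulum (r = 0.93 and 0.92). The arrays share groups and animals, so these correlations are a description.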

How the data were processed

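The authors deposited 1 table of log2 expression values for the 81 arrays, made by RMA with the affy package per the submitters' processing notes; tool versions are not given in the sources used here. Array medians lay between 5.12 and 5.31. Among healthy arrays, 47 of the 64 members (73.4%) and 7314 of the 11806 genes tested (62.0%) had an F-test p over 0.95 between the 4 batches, so that the deposited batch means are nearly equal there; whether a batch adjustment was made is not given in the sources used here. Depth has no meaning for arrays, and the number of arrays limits the precision.

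Of 52865 probe sets, 24969 were assigned to 1 gene by GEO's platform annotation, 361 to several and 27535 to none. Only the first kind was used, with the probe set of the highest mean over all arrays for each gene. A gene was tested where at least 2 arrays exceeded the percentile 40 of the whole table (11806 of 14132 genes). Members and gene lists were chosen with earlier results of these data known. One linear model with group and batch was fitted to all 81 arrays with limma 3.58.1 in R 4.3.3 (62 residual degrees of freedom, eBayes with trend), and p-values were adjusted by the Benjamini-Hochberg method over all genes within each of 28 comparisons. The arrays came from 50 animals, 11 of which gave a healthy and a transplant array; p-values measure the spread between arrays.

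Values were given for the 3 largest rises and 2 largest falls called per complex in NoRx.F, the 3 largest rises and falls called in other comparisons, a set of 25 members (19 with a probe set), the 3 genes most like the members' mean and up to 3 genes of each other list. Further members were named after their values were seen.

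The animal number pairs arrays of the same animal. Deviations from group means correlated with r of 0.08 to 0.66 (median 0.34) over 24 pairs of transplant arrays, and -0.19 to 0.34 (median 0.18) over 17 pairs of a healthy and a transplant array. The animal entered an alternative fit as a random block (consensus correlation 0.1939). The other alternatives were no batch term, a second quantile normalization, the mean of a gene's probe sets, no filter, actin and GAPDH 3-prime to 5-prime differences as covariates, no arrays of high spike-in signal, only the groups compared with healthy arrays, single batches, day 14 arrays only, and each array left out.

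The fit was tested on simulated data. In NoRx.F against healthy controls, over 11806 genes, it recovered 60 of 100 genes changed by 0.5 and 92 of 100 changed by 1 on the log2 scale, with 7 false calls of 159. In Siro.F against NoRx.F it recovered 39 and 89 of 100, with 7 false calls of 135. The simulated noise was normal and independent between genes and arrays, around healthy means, without batch differences or pairing of animals. Far fewer genes were changed than were called in the real comparisons, so these rates need not hold there.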

Additional observations from a re-analysis of the deposited data

Results flagged for a closer look

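In groups of 4 arrays, 196 sets of member values were examined for 1 array far from the other 3 (gap over range above 0.829), and 7 were found; chance gives about 1 in 20.

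Animal 29 in FR104.Siro.F stood apart in 3 genes: NDUFA10 at 8.65 against 8.42 to 8.45 in the other arrays, NDUFA9 at 8.61 against 8.94 to 9.01, and UQCRFS1 at 10.15 against 10.49 to 10.53. In FR104.Siro.D14, NDUFA4 lay at 11.27 in animal 26 and at 10.95 to 10.98 in the others. In NoRx.F, NDUFS6 lay at 10.63 in animal 52 and at 10.30 to 10.36 in the others. In Siro.F, COX7A2 lay at 11.80 in animal 13 against 11.05 to 11.15, and NDUFV2 at 11.33 in animal 17 against 10.92 to 10.97.

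The hybridisation spike-in controls, which the comparisons of genes do not use, were brighter in 8 transplant arrays than in any healthy array. Animal 29 in FR104.Siro.F and all arrays of FR104.Siro.D14 are among them.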

How the results depend on the processing

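Over the 103 named gene results, the replicate block for animal and the fit without batch each kept every direction and call. Since healthy batch means were already nearly equal in the deposited values, leaving out the batch term could hardly turn a direction. Averaging a gene's probe sets ended 25 calls and turned 3 directions, the actin and GAPDH covariates ended 10 calls, and leaving out the arrays of high spike-in signal ended 11; the causes were not tested.

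Members called moved by over 1.5 times as follows. The replicate block gave 17 in Auto.D14, 5 in FR104.D14, 2 in FR104.Siro.F and 2 in Tac.Mtx.D14 against healthy controls, 5 in Auto.D36 against Auto.D14 and 1 in FR104.Siro.F against FR104.Siro.D14; other counts under the block stayed within 1.5 times.

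Without batch, counts against healthy controls were 23 in Auto.D14, 17 in Auto.D36, 12 in Bela.Siro.D14, 11 in Bela.Siro.F, 6 in FR104.D14, 17 in FR104.F, 8 in FR104.Siro.D14, 5 in FR104.Siro.F, 5 in Tac.Mtx.D14 and 17 in Tac.Mtx.D30. Against NoRx.F they were 10 in Bela.F, 15 in Bela.Siro.F and 28 in FR104.F, with 19 in NoRx.F against Auto.D14 and 3 in Auto.D36 against Auto.D14.

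With probe sets averaged, counts against healthy controls were 6 in Auto.D14, 2 in FR104.Siro.F, 2 in Tac.Mtx.D14 and 4 in Tac.Mtx.D30. Against NoRx.F they were 20 in Siro.F, 6 in Tac.Mtx.F, 1 in Bela.F, 3 in Bela.Siro.F and 7 in FR104.F, with 3 in NoRx.F against Auto.D14 and 3 in Auto.D36 against Auto.D14. A second quantile normalization gave 4 in FR104.D14, 10 in FR104.Siro.D14, 17 in Siro.F and 17 in Tac.Mtx.F against healthy controls, 7 in Bela.F against NoRx.F, 3 in Auto.D36 against Auto.D14 and 1 in FR104.Siro.F against FR104.Siro.D14. Without the filter FR104.F had 5.

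The covariates gave 4 in Auto.D36, 2 in Bela.Siro.D14, 5 in Bela.Siro.D30, 4 in FR104.F and 2 in Tac.Mtx.D30 against healthy controls, and 0 in Auto.D36 against Auto.D14. Without arrays of high spike-in signal, 0 were called in Auto.D14, Bela.Siro.F and FR104.D14 against healthy controls and 0 in Auto.D36 against Auto.D14; FR104.Siro.D14 could not be fitted, since all its arrays were removed. Using the compared groups and healthy arrays alone gave 12 in Bela.Siro.D14, 12 in Bela.Siro.F, 4 in FR104.D14, 3 in FR104.Siro.F, 6 in Tac.Mtx.D14 and 15 in Tac.Mtx.D30, with 2 in Auto.D36 against Auto.D14 and 1 in FR104.Siro.F against FR104.Siro.D14. The day 14 arrays of FR104.Siro.D14 alone gave 2.

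A single batch with healthy arrays gave 15 in NoRx.F (batch 2), 0 and 21 in Siro.F (batches 1 and 2), 1 in Bela.Siro.D14, 1 in Bela.Siro.F and 3 in Tac.Mtx.D30 (batch 3), and 3 in Auto.D14, 0 in FR104.D14 and 2 in FR104.F (batch 4). Siro.F against NoRx.F had 0 in batch 2, and Auto.D36 against Auto.D14 had 0 in batch 4. Batches without both groups of a comparison gave no value.

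Leaving out 1 array at a time gave, against healthy controls, 46 to 47 in NoRx.F, 0 to 21 in Auto.D14, 4 to 8 in Auto.D36, 12 to 36 in Bela.F, 0 to 5 in Bela.Siro.D14, 4 to 20 in Bela.Siro.D30, 0 in Bela.Siro.F, 0 to 4 in FR104.D14, 1 to 8 in FR104.F, 3 to 5 in FR104.Siro.D14, 3 to 13 in Siro.F, 1 to 4 in Tac.Mtx.D14, 0 in Tac.Mtx.D30 and 3 to 28 in Tac.Mtx.F. Against NoRx.F the ranges were 18 to 35 in Siro.F, 3 to 16 in Tac.Mtx.F, 2 to 6 in Bela.F, 2 to 13 in Bela.Siro.F, 5 to 21 in FR104.F and 27 to 38 in FR104.Siro.F. They were 2 to 15 in NoRx.F against Auto.D14, 0 to 9 in Auto.D36 against Auto.D14 and 0 to 2 in FR104.Siro.F against FR104.Siro.D14. Where 1 array was left in a group of 2, it was assumed to vary like the others.

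Directions turned in NoRx.F against healthy controls for ATP5F1B (-0.17, probe sets averaged), COX4I2 (-0.046 after quantile normalization, -0.064 in batch 2), COX6A2 (0.018 in batch 1), COX8A (0.044 in batch 2) and NDUFA4L2 (-0.17 in batch 2). With 1 NoRx.F array left out, COX4I2 ranged from -0.01 to 0.066, COX6A2 from -0.114 to 0.063 and SDHA from -0.121 to 0.074. With probe sets averaged, NDUFB7 was -0.031 in Tac.Mtx.D30 against healthy controls and NDUFS6 was 0.21 in Bela.Siro.F against NoRx.F.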
